A study of Mus musculus with 9 samples.

Results

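The genes described here are nucleolar factors of ribosome biogenesis, in bone marrow cells of mice with AML1-ETO9a leukaemia sorted into 3 populations. They were taken by symbol from a list of 52 genes, of which 51 had a row among the 24391 gene rows of the count table. The gene without a row, Noc2l, was not analysed here. All 51 passed the filter on low counts that left 12573 genes for testing.

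Ribosome production starts in the nucleolus, where RNA polymerase I transcribes the ribosomal DNA into a long precursor RNA. Small nucleolar ribonucleoproteins (snoRNPs) guide its chemical modification, the box C/D class for ribose methylation and the box H/ACA class for pseudouridylation. Large sets of assembly factors, helicases and nucleases then fold and cut the precursor and add ribosomal proteins to form the small and the large subunit. The transcription factor MYC is known for activating many of these genes, and growing blood progenitors and leukaemia cells are known for prominent nucleoli.

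RNA had been sequenced from CD43++ckit+, CD43+ckit- and CD43-ckit- cells, with 3 libraries of each population and 9 in all. All cells came from bone marrow of C57BL/6 mice aged 6 to 8 weeks, per the labels, and all populations carry the same AML1-ETO9a model, so no healthy marrow is among them. AML1-ETO9a is a truncated isoform of the leukaemia fusion protein AML1-ETO. CD43 is a leukocyte surface sialoglycoprotein, and c-Kit, which progenitors carry, binds stem cell factor. Whether libraries of 1 population are separate animals or pools is not in the labels. Their p-values therefore measure the spread among samples alone, and that spread may be technical.

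A sequence feature that some of the genes share is the hexamer CACGTG, the canonical E-box that MYC and its partner MAX bind. RefSeq (build GRCm38.p6) gave promoter sequence, from 250 bases before to 50 bases after the start of the gene, for 45 of the 51 genes, and 7 of these held CACGTG (15.6%). The hexamer reads the same on both strands, and no other motif was searched. It was present in promoters of 16 of 88 other ribosome biogenesis genes (18.2%) and of 2187 of the 27025 genes in the RefSeq promoter set (8.09%). Npm1, Fbl, Wdr36, Rrp12, Rrs1 and Bop1 had no entry. The 7 matches are printed below as windows of 30 bases, in the direction of transcription with the hexamer in capitals. The windows were chosen for the hexamer, and the bases around it differ from gene to gene.
Imp4: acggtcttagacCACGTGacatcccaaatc
Nop2: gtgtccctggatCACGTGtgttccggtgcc
Ltv1: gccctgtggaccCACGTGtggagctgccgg
Utp20: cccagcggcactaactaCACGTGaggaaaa
Pes1: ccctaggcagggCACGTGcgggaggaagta
Tsr1: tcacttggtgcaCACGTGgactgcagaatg
Wdr43: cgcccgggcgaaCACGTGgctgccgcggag

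The window of Imp4 lies at chr1:34439696-34439725 and that of Nop2 at chr6:125131811-125131840, both on the plus strand and both before the start, with the hexamer beginning 121 and 60 bases upstream. Those of Pes1 (chr11:3963965-3963994), Tsr1 (chr11:74898092-74898121) and Wdr43 (chr17:71616220-71616249), also on the plus strand, lie at or just after the start. The windows of Ltv1 (chr10:13193092-13193121) and Utp20 (chr10:88826765-88826794), on the minus strand, lie after it as well. The 250 bases upstream of Nop2, which encodes an rRNA methyltransferase of the large subunit, at chr6:125131633-125131882, are shown to give the hexamer its setting.
Nop2: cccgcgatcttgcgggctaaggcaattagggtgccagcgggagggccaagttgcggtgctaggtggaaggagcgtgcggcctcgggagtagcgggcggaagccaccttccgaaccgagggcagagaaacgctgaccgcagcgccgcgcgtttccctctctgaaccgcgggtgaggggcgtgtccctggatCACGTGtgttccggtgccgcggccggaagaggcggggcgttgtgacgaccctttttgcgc

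A match describes the letters only, and no binding was measured. The 7 genes with the hexamer had log2 fold changes in CD43++ckit+ versus CD43+ckit- cells from 0.68 for Imp4 to 2.14 for Tsr1.

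Together the 51 genes held 0.818%, 0.813% and 0.611% of all counts in the CD43++ckit+ libraries. Their share was 0.198%, 0.229% and 0.263% in the CD43+ckit- libraries and 0.0758%, 0.134% and 0.147% in the CD43-ckit- libraries. The 95% Wilson intervals of these shares, which cover counting error only, were narrow, from 0.815% to 0.821% for the highest share, in CD43++ckit+, and from 0.0747% to 0.0770% for the lowest, in CD43-ckit-. The 3 populations did not overlap in this share, and the CD43++ckit+ libraries stood apart from both others. After scaling by TMM, a method that corrects for the makeup of each library, the summed level was 6496, 6349 and 4338 CPM (counts scaled to a common library size) in CD43++ckit+. It was 1876, 2099.5 and 2309 CPM in CD43+ckit- and 1288, 1829 and 1892 CPM in CD43-ckit-, and on this scale the ranges of those last populations overlapped. Among other reasons, the share of 1 gene can fall because fewer cells of a type are present or because each cell holds less of its RNA. In bulk libraries these cannot be told apart.

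Total counts ranged from 17966197 to 31781746 per library, and the lowest count of any of the 51 genes in any library was 55. Library 3 of CD43++ckit+ and library 1 of each other population correlated least with the rest of their own population. Library 3 of CD43++ckit+ had the lowest level of 50 of the 51 genes within its population, and its summed level of 11 neutrophil markers was 6543 CPM, against 381 and 104 CPM in libraries 1 and 2. Library 1 of CD43+ckit- was the lowest of its population for 40 genes, with neutrophil markers at 539 CPM, and library 1 of CD43-ckit- for 48, with neutrophil markers at 4388 CPM. The summed erythroid markers (9 of 10 with a row, of which 1 stood at 0 in all libraries) ranged from 1139 to 1896 CPM in CD43++ckit+, from 12178 to 14607 CPM in CD43+ckit- and from 27586 to 42459 CPM in CD43-ckit-, so they ran opposite to the nucleolar genes. Of these, the globin gene Hbb-bs was the one at 0 in all libraries, and Hba-a1 was at 0 in some. The summed neutrophil markers (11 of 11 with a row) ranged from 104 to 6543, from 539 to 3385 and from 4388 to 16734 CPM in the same order of populations. The progenitor markers Kit, Cd34, Flt3 and Myb summed to 355 to 459 CPM in CD43++ckit+ cells, 61.0 to 89.0 CPM in CD43+ckit- cells and 83.6 to 133 CPM in CD43-ckit- cells. Mast cell and basophil markers (6 of 6 with a row) moved the same way as the nucleolar genes, at 1853, 1632 and 935 CPM in the CD43++ckit+ libraries, 479, 477 and 491 CPM in the CD43+ckit- libraries and 282, 429 and 409 CPM in the CD43-ckit- libraries, with library 3 again lowest in CD43++ckit+ and library 1 in CD43-ckit-. Macrophage markers (8 of 8) were at 13.2 to 92.4, 13.6 to 36.0 and 127 to 166 CPM in CD43++ckit+, CD43+ckit- and CD43-ckit-, and B cell markers (6 of 6) at 3.14 to 21.8, 13.2 to 41.3 and 76.2 to 209 CPM. T cell markers (6 of 6, with Cd3d, Cd3g and Cd8a at 0 in some libraries) were at 3.99 to 7.61, 26.0 to 30.2 and 12.02 to 18.9 CPM, and megakaryocyte markers (6 of 6, Ppbp at 0 in some) at 35.8 to 41.7, 55.4 to 57.3 and 53.7 to 75.7 CPM. The part that these cell types have in the values below was not tested.

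**Figure D1:**
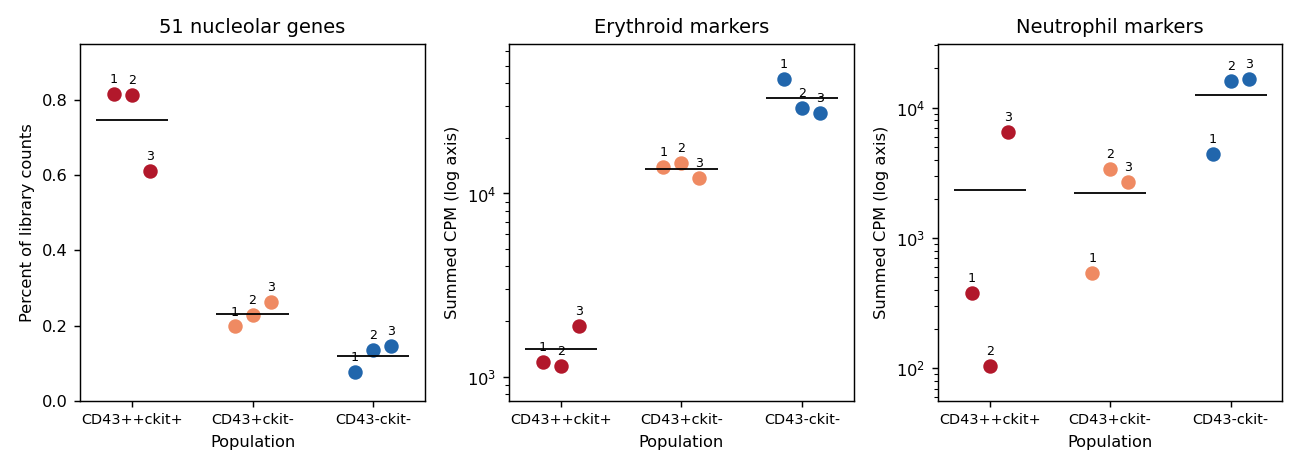
Share of all counts held by the 51 nucleolar genes (left, percent, axis from 0) and summed CPM of erythroid (middle) and neutrophil markers (right, log axes) in each library, with numbers marking the libraries and a line at each population mean. The nucleolar share was 0.611% to 0.818% in CD43++ckit+ and at most 0.263% in the other populations, while the erythroid sum was lowest in CD43++ckit+, at 1139 to 1896 CPM.

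Every one of the 51 genes had its highest mean in CD43++ckit+ cells, as did 4949 of all 12573 tested genes. All 51 differed among the populations in the joint edgeR quasi-likelihood test (adjusted p under 0.05, as did 74.8% of all tested genes). Each log2 fold change is the population named first over the other, with its standard error, and each adjusted p is from the edgeR quasi-likelihood test, with Benjamini-Hochberg adjustment over all tested genes. Between CD43++ckit+ and CD43+ckit- cells 49 genes were higher and 0 lower (19.7% of all tested genes were called higher and 20.1% lower), and 42 were at least 2-fold higher (11.2% of all). At an unadjusted p under 0.05, 50 were higher and 0 lower. DESeq2 also called 49 higher and 0 lower (20.5% of all tested genes were higher). In all 51 genes the lowest CD43++ckit+ library lay above the highest CD43+ckit- library (27.0% of all tested genes did so). The log2 fold changes had a median of 1.59 and ran from 0.32 to 2.95, while the median over all tested genes was 0.01.

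Against CD43-ckit- cells all 51 were higher in CD43++ckit+ cells and 0 lower (39.7% of all tested genes were higher and 27.7% lower). The same held with DESeq2 (33.8% of all tested genes were higher). Of the 51, 50 were at least 2-fold higher by edgeR (25.8% of all). The libraries of these populations did not overlap for any of the 51 genes (42.7% of all tested genes lay above without overlap). The median log2 fold change was 1.92, with a range from 0.71 to 2.52 and a median over all tested genes of 0.19. Without the 3 least correlated libraries, 51 genes were higher against CD43+ckit- (34.6% of all tested genes) and 51 against CD43-ckit- (46.4% of all). Across single libraries left out in turn, the count against CD43+ckit- ranged from 43 to 50 (12.6% to 22.9% of all tested genes). Nhp2, Pes1, Wdr74, Bysl and Ddx56 lost their call there without either of the CD43++ckit+ libraries 1 and 2 or the CD43+ckit- library 1, Wdr74 and Bysl also without library 3 of CD43+ckit-, Ddx56 also without its library 2, and Noc4l without library 1 of CD43++ckit+ (edgeR adjusted p from 0.0509 to 0.0774).

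Between CD43+ckit- and CD43-ckit- cells the same genes stood much closer together. Here 10 were higher and 0 lower in CD43+ckit- (31.0% of all tested genes were higher and 20.9% lower), none of them 2-fold (11.8% of all), and the median log2 fold change was 0.46, with a range from -0.85 to 0.87 and a median over all tested genes of 0.13. For 19 genes the CD43+ckit- libraries lay wholly above the CD43-ckit- libraries (36.1% of all). At an unadjusted p under 0.05, 18 were higher and 1 lower. The count in this comparison depended on the fit. Same-numbered libraries of these populations deviated together. Library 2 of each did so with library 3 of the other as well, so the numbers do not establish pairs. With the replicate number as a block in a fit of these populations alone, 26 genes were higher and 3 lower (34.5% of all tested genes were higher). Without the 3 least correlated libraries it was 36 higher and 4 lower (37.4% of all tested genes were higher). With library totals in place of TMM it was 44 higher and 0 lower, with DESeq2 size factors 2 and 1, and with DESeq2 3 and 2. Of all tested genes 54.6%, 22.3% and 24.4% were higher in these fits. Relative to the median over all tested genes, which these scalings moved to 0.78 and -0.07, the median of the 51 genes was 0.33 with TMM, 0.31 with library totals and 0.33 with DESeq2 size factors. Of all calls in this comparison 59.7% were higher with TMM, 85.2% with library totals and 45.8% with DESeq2 size factors. Leaving out library 2 or 3 of CD43+ckit- gave 3 or 4 genes higher (23.9% or 24.8% of all tested genes). Leaving out library 1 or 2 of CD43-ckit- gave 5 or 6 (30.1% or 24.7% of all), and leaving out library 3 of CD43++ckit+ gave 17 (32.9% of all).

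**Figure D2:**
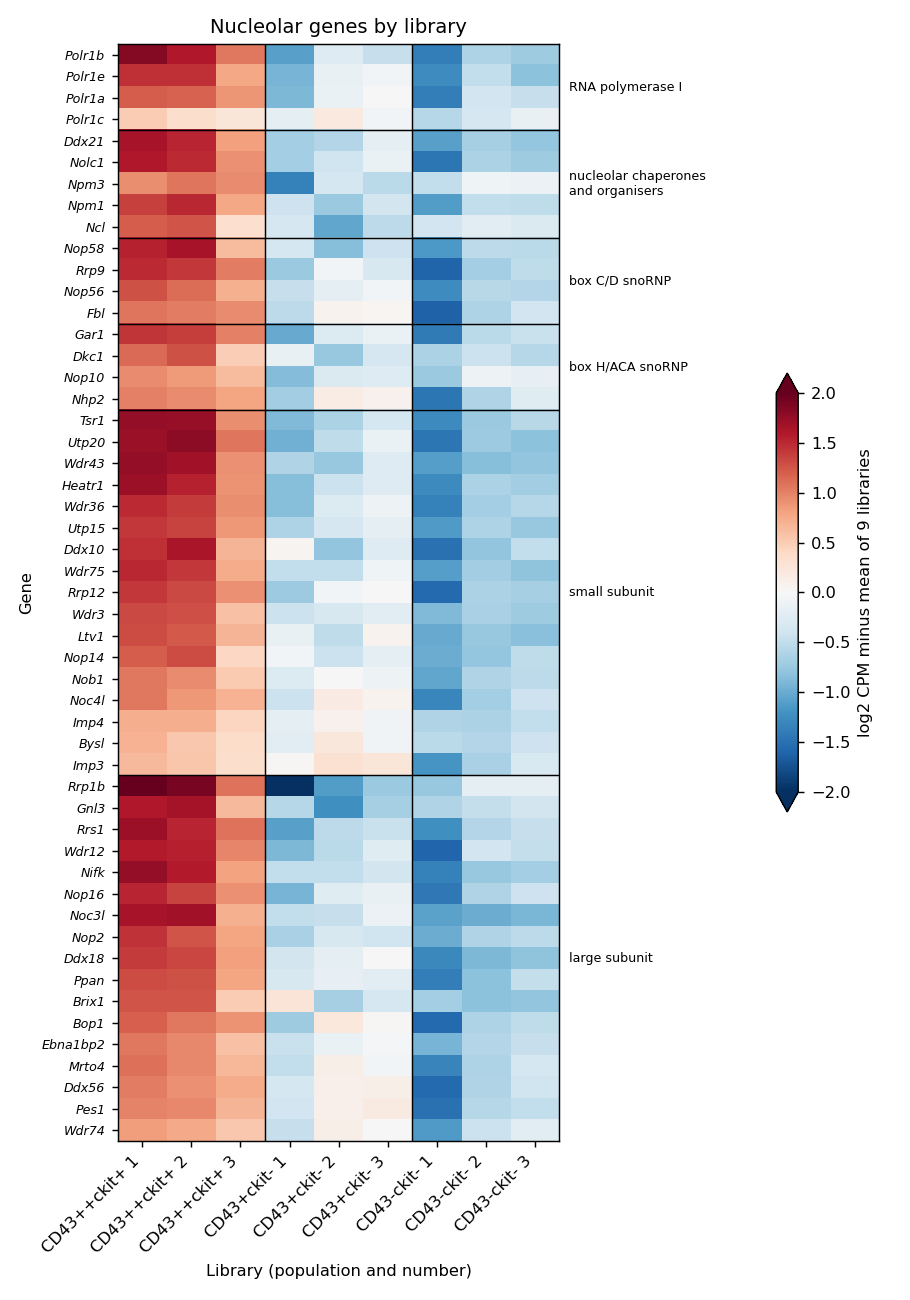
Deviation of log2 CPM from the mean of the 9 libraries for each of the 51 nucleolar genes (rows, by role) in each library (columns, by population and number), with colours limited to -2 and 2. The CD43++ckit+ columns are above the mean for all genes, and within them library 3 is the palest, being the lowest for 50 of 51 genes.

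RNA polymerase I subunits open the pathway. Of the 4 on the list, 3 were higher in CD43++ckit+ cells than in CD43+ckit- cells and 4 higher than in CD43-ckit- cells, and 0 differed between CD43+ckit- and CD43-ckit- cells, with median log2 fold changes of 1.50, 1.93 and 0.36. In these comparisons 19.7%, 39.7% and 31.0% of all tested genes were higher, which holds for the counts of each role below as well. Polr1b, the second-largest subunit, stood at 111, 94.1 and 63.8 CPM in the CD43++ckit+ libraries, 14.5, 25.9 and 22.4 CPM in the CD43+ckit- libraries and 11.8, 20.2 and 18.8 CPM in the CD43-ckit- libraries. Every CD43++ckit+ library was above every other library, while the CD43+ckit- and CD43-ckit- libraries overlapped. Its log2 fold change was 2.09 ± 0.30 (SE) against CD43+ckit- cells (adjusted p = 0.000889) and 2.40 ± 0.30 against CD43-ckit- cells (adjusted p = 0.00015). Polr1e, which encodes the PAF53 subunit, had the lowest average CPM of the list (not per length), at 29.0, 28.9 and 18.0 CPM in CD43++ckit+ cells, 5.48, 9.46 and 10.1 CPM in CD43+ckit- cells and 4.32, 7.46 and 5.89 CPM in CD43-ckit- cells. It showed the same separation of CD43++ckit+ from the rest, by 1.60 ± 0.31 and 2.10 ± 0.31 (adjusted p = 0.00341 and 0.000375). Polr1c, a subunit that RNA polymerase I shares with RNA polymerase III, was chosen for mention after its values were seen. At 66.6, 59.6 and 55.5 CPM in CD43++ckit+ and 41.6, 53.5 and 45.4 CPM in CD43+ckit- its log2 fold change was 0.37 ± 0.15 (adjusted p = 0.0813), and only against CD43-ckit- (31.4, 37.2 and 42.4 CPM) did it pass the test (0.71 ± 0.15, adjusted p = 0.00282). Polr1c passed the test against CD43+ckit- as well with library totals (0.63, adjusted p = 0.0338), without library 1 of CD43-ckit- (0.37, 0.0464) and without the 3 least correlated libraries (0.35, 0.0167), by edgeR. The difference between Polr1c and the other subunits was not tested.

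Nucleolar chaperones and organisers shape the compartment and handle its RNA. All 5 were higher in CD43++ckit+ than in either other population, and 0 of 5 differed between CD43+ckit- and CD43-ckit- cells, with medians of 1.75, 1.92 and 0.17. With the replicate block in a fit of CD43+ckit- and CD43-ckit- alone, Nolc1 was higher and Npm3 lower in CD43+ckit-. Ncl, which encodes nucleolin and had the highest average CPM on the list (not per length), stood at 784, 811 and 428 CPM in CD43++ckit+ cells, 268, 166 and 238 CPM in CD43+ckit- cells and 259, 290.1 and 279 CPM in CD43-ckit- cells. Its lowest values were thus in CD43+ckit-, and the log2 fold change of CD43+ckit- over CD43-ckit- was -0.30 ± 0.26 (adjusted p = 0.328), positive at 0.33 with library totals. CD43++ckit+ exceeded CD43+ckit- by 1.59 ± 0.26 (adjusted p = 0.00171) and CD43-ckit- by 1.29 ± 0.26 (adjusted p = 0.0019). Npm1, the nucleolar chaperone nucleophosmin, stood at 682, 754 and 453 CPM in CD43++ckit+ cells, 199, 159 and 205 CPM in CD43+ckit- cells and 123, 189 and 188 CPM in CD43-ckit- cells. The CD43+ckit- and CD43-ckit- libraries of Npm1 overlapped, and CD43++ckit+ lay above them by 1.75 ± 0.24 and 1.92 ± 0.24 (adjusted p = 0.000802 and 0.000146). Ddx21, an RNA helicase of rRNA transcription and processing, was at 349, 320.4 and 197 CPM in CD43++ckit+ cells, 70.0, 74.3 and 97.8 CPM in CD43+ckit- cells and 52.4, 70.4 and 65.7 CPM in CD43-ckit- cells, a difference of 1.84 ± 0.24 and 2.20 ± 0.24 (adjusted p = 0.000639 and 7.34e-05). Nolc1, a chaperone of snoRNPs, and Npm3, a relative of Npm1, differed by 1.76 and 1.67 between CD43++ckit+ and CD43+ckit- cells.

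**Figure D3:**
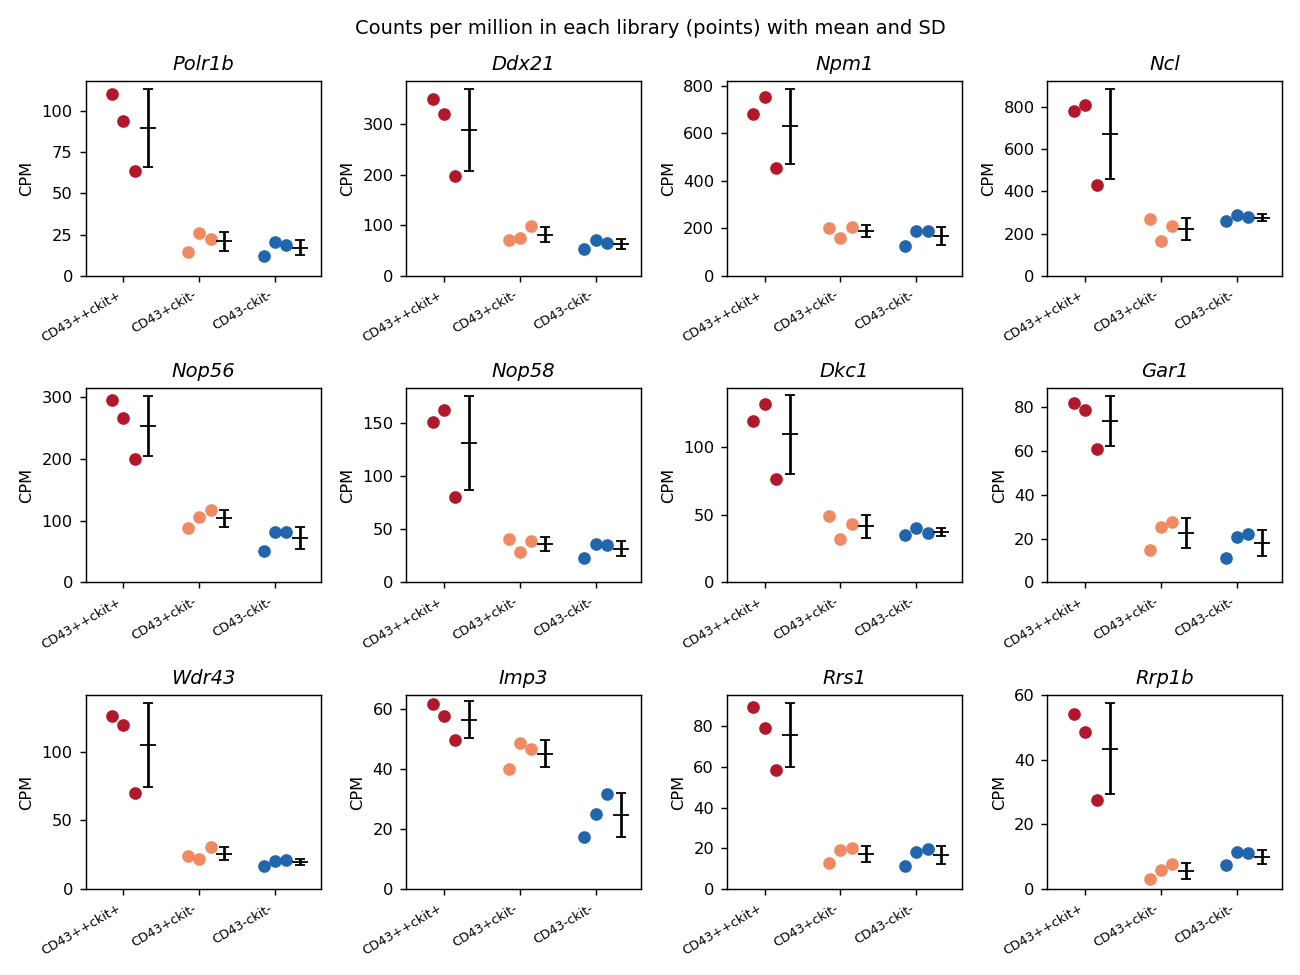
CPM of 12 nucleolar genes in each library (points, left to right libraries 1 to 3), with the mean and SD of each population beside them and axes starting at 0. CD43++ckit+ lies above both other populations in each panel; Imp3, with the smallest difference from CD43+ckit-, and Rrp1b, with the largest, were added after their values were seen.

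Proteins of the box C/D snoRNPs on the list, 4 in number, were all higher in CD43++ckit+ than in each other population, with medians of 1.48 and 1.94, and 0 of 4 differed between CD43+ckit- and CD43-ckit- cells (median 0.52). With the replicate block in the fit of those populations alone, 3 of 4 were higher in CD43+ckit- (34.5% of all tested genes were). They were Nop56, Fbl and Rrp9 (edgeR adjusted p = 0.0054, 0.00024 and 0.0108). Nop56, a scaffold protein of these particles, was at 296, 266 and 200.5 CPM in CD43++ckit+ cells, 88.8, 106 and 117 CPM in CD43+ckit- cells and 50.7, 82.6 and 81.4 CPM in CD43-ckit- cells. Nop56 was the gene of this group whose 3 populations were ordered with no overlap, and CD43++ckit+ exceeded the others by 1.29 ± 0.22 and 1.83 ± 0.23 (adjusted p = 0.00214 and 0.000137). Its partner Nop58 stood at 151, 162 and 80.7 CPM in CD43++ckit+ cells, 40.5, 28.8 and 39.0 CPM in CD43+ckit- cells and 23.5, 36.0 and 35.6 CPM in CD43-ckit- cells. Library 3 of CD43++ckit+ was the lowest of its population and still above every library of the others, and the log2 fold changes were 1.86 ± 0.29 and 2.05 ± 0.29 (adjusted p = 0.00125 and 0.000265). Fbl, the methyltransferase fibrillarin (1.13 and 1.80), and Rrp9, a protein of a single snoRNP needed for processing of the small subunit precursor (1.67 and 2.18), moved likewise.

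The box H/ACA proteins carry out pseudouridylation and also bind telomerase RNA. Again 4 of 4 were higher in CD43++ckit+ cells than in CD43+ckit- cells and than in CD43-ckit- cells (medians 1.33 and 1.58), and 0 of 4 differed between CD43+ckit- and CD43-ckit- cells (0.23), or 1, Nhp2, with that block. Dkc1, the pseudouridine synthase dyskerin, stood at 119.5, 132 and 76.6 CPM in CD43++ckit+ cells, 49.1, 32.1 and 43.0 CPM in CD43+ckit- cells and 35.0, 40.3 and 36.7 CPM in CD43-ckit- cells. The CD43+ckit- and CD43-ckit- libraries of Dkc1 overlapped widely, and CD43++ckit+ exceeded them by 1.40 ± 0.22 and 1.55 ± 0.23 (adjusted p = 0.0015 and 0.000314). Gar1, which joins the particle last, was at 81.6, 78.4 and 60.6 CPM in CD43++ckit+ cells, 14.9, 25.1 and 27.5 CPM in CD43+ckit- cells and 11.2, 20.7 and 22.2 CPM in CD43-ckit- cells (1.71 ± 0.30 and 2.02 ± 0.30, adjusted p = 0.00227 and 0.000378). The remaining core proteins differed by 1.02 and 1.60 for Nhp2 and by 1.26 and 1.13 for Nop10.

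Small subunit factors numbered 17. Of these, 16 were higher in CD43++ckit+ cells than in CD43+ckit- cells and 17 higher than in CD43-ckit- cells. In CD43+ckit- versus CD43-ckit- cells 6 were higher (31.0% of all tested genes), and the medians, in this order, were 1.46, 2.06 and 0.52. Those that bind the nascent precursor first, Utp15, Heatr1, Wdr43 and Wdr75, form the group known from yeast as the transcription-associated Utp proteins. Wdr43 stood at 126, 119 and 70.0 CPM in CD43++ckit+ cells, 24.4, 21.8 and 30.9 CPM in CD43+ckit- cells and 17.2, 20.6 and 21.5 CPM in CD43-ckit- cells, and the 3 populations were ordered with no overlap. Its log2 fold changes were 2.03 ± 0.24 and 2.41 ± 0.24 (adjusted p = 0.000477 and 4.77e-05). Utp15 was at 61.9, 59.3 and 42.3 CPM in CD43++ckit+ cells, 15.1, 18.2 and 20.3 CPM in CD43+ckit- cells and 10.4, 15.1 and 13.6 CPM in CD43-ckit- cells (1.61 ± 0.20 and 2.06 ± 0.21, adjusted p = 0.000617 and 4.93e-05). Wdr75 was at 67.5, 63.1 and 39.7 CPM in CD43++ckit+ cells, 16.7, 16.9 and 22.2 CPM in CD43+ckit- cells and 11.0, 14.5 and 13.5 CPM in CD43-ckit- cells (1.61 ± 0.23 and 2.12 ± 0.23, adjusted p = 0.000856 and 7.22e-05). Heatr1 gave 1.92 and 2.27, so the 4 proteins of this group lay between 1.61 and 2.03 against CD43+ckit- cells.

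The factors that act next spread more widely. Wdr3 and Wdr36, subunits of a later-joining Utp complex, differed by 1.42 and 1.66 between CD43++ckit+ and CD43+ckit- cells, Utp20 by 2.06, the helicase Ddx10 by 1.61, Nop14 by 1.25, Noc4l by 0.92 and Rrp12 by 1.46. Imp3 and Imp4, known in yeast to pair a guide snoRNA with the precursor, had smaller differences and were singled out after their values were seen. Imp3 stood at 61.9, 57.9 and 49.9 CPM in CD43++ckit+ cells, 40.1, 48.7 and 46.8 CPM in CD43+ckit- cells and 17.3, 25.1 and 31.8 CPM in CD43-ckit- cells. Its CD43++ckit+ libraries lay just above the CD43+ckit- ones (0.32 ± 0.21, adjusted p = 0.248), and the larger gap was below them, with CD43+ckit- higher than CD43-ckit- by 0.87 ± 0.21 (adjusted p = 0.00817). Imp4 gave 0.68 ± 0.13 against CD43+ckit- (adjusted p = 0.00328) and 0.52 ± 0.13 for CD43+ckit- over CD43-ckit- (adjusted p = 0.00979).

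Late factors escort the small subunit precursor into the cytoplasm. Tsr1 (2.14), Ltv1 (1.27), Nob1, the nuclease that makes the mature end of small subunit rRNA (0.98), and Bysl (0.54) covered nearly the whole span of the class in CD43++ckit+ versus CD43+ckit- cells. Ltv1, Nob1 and Bysl, with Imp3, Imp4 and Noc4l, were the 6 small subunit factors higher in CD43+ckit- cells than in CD43-ckit- cells, by 0.51 to 0.87. With the replicate block 11 of the 17 were (34.5% of all tested genes). The Imp3 call held under every alternative run. The calls of Noc4l, Bysl, Ltv1 and Nob1 were lost with DESeq2 and with DESeq2 size factors, that of Imp4 with the size factors, and those of Noc4l and Bysl in the unblocked fit of both populations alone. Leaving out library 2 of CD43+ckit- ended those of Noc4l, Imp4, Bysl and Nob1, its library 3 those of Noc4l, Ltv1 and Nob1, library 1 of CD43-ckit- those of Noc4l, Ltv1 and Nob1, and its library 2 those of Noc4l and Bysl (edgeR adjusted p from 0.0554 to 0.147). Of the exon bases of Tsr1, 32.3% overlap Srr on the other strand, so its counts are uncertain where strand was not used.

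Large subunit factors, 17 with a row, were all higher in CD43++ckit+ cells than in CD43+ckit- cells and than in CD43-ckit- cells. In CD43+ckit- versus CD43-ckit- cells 4 were higher (31.0% of all tested genes), and the medians, in this order, were 1.39, 1.89 and 0.46. Ddx18, an RNA helicase, had the smallest joint p of the class and stood at 97.8, 94.1 and 65.6 CPM in CD43++ckit+ cells, 28.7, 32.8 and 36.9 CPM in CD43+ckit- cells and 15.2, 19.8 and 21.2 CPM in CD43-ckit- cells. All 3 populations were apart, at 1.39 ± 0.19, 2.20 ± 0.20 and, for CD43+ckit- over CD43-ckit-, 0.81 ± 0.20 (adjusted p = 0.00086, 2.85e-05 and 0.0082). Of the 50-base words of its transcripts 44.1% occur in no other gene, the rest being shared mainly with the predicted gene Gm16433, so part of its counts is uncertain. Nop2, whose promoter was shown above, was at 141, 125 and 90.4 CPM in CD43++ckit+ cells, 33.3, 41.7 and 39.3 CPM in CD43+ckit- cells and 26.1, 34.2 and 36.1 CPM in CD43-ckit- cells. The CD43+ckit- and CD43-ckit- libraries of Nop2 overlapped, and CD43++ckit+ exceeded them by 1.64 ± 0.20 and 1.89 ± 0.20 (adjusted p = 0.000501 and 6.09e-05). Rrs1, which in yeast helps to install the smallest rRNA of the large subunit, was at 89.6, 78.9 and 58.4 CPM in CD43++ckit+ cells, 12.9, 19.1 and 20.1 CPM in CD43+ckit- cells and 11.6, 18.3 and 20.0 CPM in CD43-ckit- cells. The CD43+ckit- and CD43-ckit- values of Rrs1 were nearly the same (0.06 ± 0.26, adjusted p = 0.847, negative at -0.13 with DESeq2 size factors), and CD43++ckit+ stood above them by 2.12 ± 0.26 and 2.19 ± 0.26 (adjusted p = 0.000571 and 0.000122).

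Pes1, Bop1 and Wdr12 encode the subunits of 1 complex, PeBoW, and had unequal fold changes in value. Against CD43+ckit- cells the CD43++ckit+ values were higher by 0.90 ± 0.26 for Pes1, 1.16 ± 0.30 for Bop1 and 1.93 ± 0.32 for Wdr12 (adjusted p = 0.0209, 0.0132 and 0.00191). Against CD43-ckit- cells they were closer, at 1.67, 1.88 and 2.12. The differences between these genes were not tested. Pes1, with Ppan, Ddx18 and the helicase Ddx56, was higher in CD43+ckit- cells than in CD43-ckit- cells. With the replicate block 10 of the 17 large subunit factors were higher and 2 lower (34.5% of all tested genes were higher). The Ddx18 call held under every alternative run. Those of Pes1, Ppan and Ddx56 were lost with DESeq2, with DESeq2 size factors, in the unblocked fit of both populations alone and without library 2 or 3 of CD43+ckit-. Ppan and Ddx56 also lost theirs without any 1 of the CD43++ckit+ library 1 and the CD43-ckit- libraries 1 and 2, Ppan without library 1 of CD43+ckit- and Ddx56 without library 2 of CD43++ckit+ (edgeR adjusted p in the fits without 1 library from 0.0501 to 0.160). Of the rest, Noc3l, Nop16, Nifk, Brix1, Mrto4, Ebna1bp2 and Wdr74 lay between 0.81 and 1.89 against CD43+ckit-.

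Rrp1b, which targets a protein phosphatase to the nucleolus, had the largest difference of the list and was singled out after its values were seen. It stood at 54.1, 48.5 and 27.6 CPM in CD43++ckit+ cells, 3.09, 5.97 and 7.76 CPM in CD43+ckit- cells and 7.62, 11.4 and 11.3 CPM in CD43-ckit- cells. Its lowest values were in CD43+ckit-, with a log2 fold change of 2.95 ± 0.38 for CD43++ckit+ against CD43+ckit- (adjusted p = 0.000639), 2.10 ± 0.37 against CD43-ckit- (adjusted p = 0.00088) and -0.85 ± 0.36 for CD43+ckit- over CD43-ckit- (adjusted p = 0.0748). Gnl3, the GTPase nucleostemin, also had its lowest mean in CD43+ckit-, at 90.9 ± 31.0, 20.2 ± 4.64 and 25.1 ± 2.02 CPM (SD, n = 3) in CD43++ckit+, CD43+ckit- and CD43-ckit-. With Ncl, Npm3 and Nop10 these were the 5 genes lowest in CD43+ckit- (2475 of all 12573 tested genes were). The other 46 means fell in the order CD43++ckit+, CD43+ckit-, CD43-ckit- (3884 of all 12573 did). With the replicate block in a fit of CD43+ckit- and CD43-ckit- alone, 3 of the 5 were lower in CD43+ckit-: Npm3 by -0.57 (edgeR adjusted p = 0.00314), Rrp1b by -0.97 (0.000128) and Gnl3 by -0.40 (0.0486). With library totals Npm3 and Gnl3 turned positive (0.17 and 0.32), as did Nop10 (0.49).

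**Figure D4:**
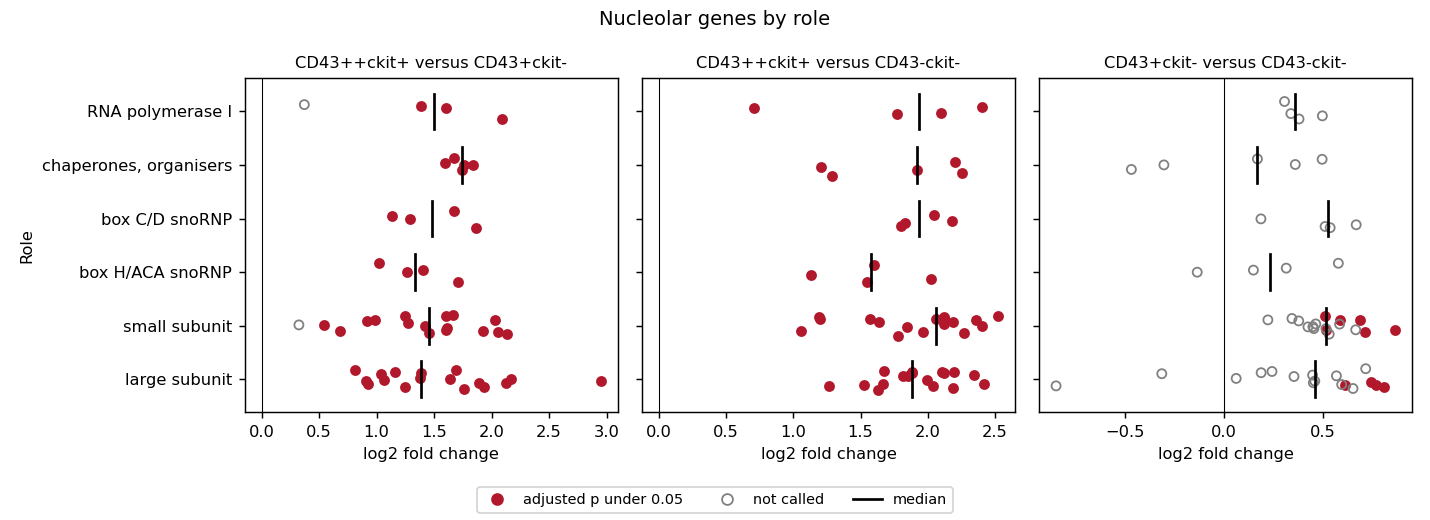
Log2 fold changes of the 51 nucleolar genes by role (rows) in the 3 comparisons (panels), with filled points for adjusted p under 0.05 (edgeR, without a replicate block), open points for genes not called and a bar at each median. Medians by role were 1.33 to 1.75 for CD43++ckit+ versus CD43+ckit-, 1.58 to 2.06 for CD43++ckit+ versus CD43-ckit- and 0.17 to 0.52 for CD43+ckit- versus CD43-ckit-.

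The size of the difference on each side of CD43+ckit- was compared within each gene, by testing the CD43++ckit+ to CD43+ckit- difference minus the CD43+ckit- to CD43-ckit- difference in the same fit, a contrast added after the data were seen. For 50 of the 51 genes the first difference was the larger (6093 of all 12573 tested genes), Imp3 being the exception at -0.54. In 19 genes it was significantly larger and in 0 the second was (10.5% and 18.0% of all tested genes, edgeR adjusted p under 0.05). DESeq2 gave 27 and 0 (2169 and 2240 of all 12573 tested genes). The 19 included Rrp1b (3.80, adjusted p = 0.00482), Gnl3 (2.48, adjusted p = 0.00734), Npm3 (2.14, adjusted p = 0.00769), Rrs1 (2.06, adjusted p = 0.0116), Ncl (1.89, adjusted p = 0.0162) and Wdr43 (1.65, adjusted p = 0.0185). The median over the 51 genes was 1.10 (-0.05 over all tested genes), and with library totals it was 0.71 (-0.43 over all). With library totals 5 genes were called and 0 the other way (820 and 3624 of all 12573 tested genes). The count was 9 without library 1 or 2 of CD43++ckit+, 5, 6 and 8 without library 1, 2 or 3 of CD43+ckit-, 8 and 11 without library 2 or 3 of CD43-ckit-, and 39 without the 3 least correlated libraries. Over all tested genes, these runs without 1 library called from 677 of 12858 (library 3 of CD43+ckit-) to 1158 of 12778 (library 3 of CD43-ckit-). Without the 3 least correlated libraries it was 2946 of 12655.

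Other gene lists of growth were set beside these values. In CD43++ckit+ versus CD43+ckit- cells 19.7% of all tested genes were higher and 20.1% lower. In CD43+ckit- versus CD43-ckit- cells it was 31.0% and 20.9%. Of 75 tested cytosolic ribosomal protein genes, 3 were higher and 2 lower in CD43++ckit+ cells than in CD43+ckit- cells (median 0.07), and 59 were higher and 1 lower in CD43+ckit- cells than in CD43-ckit- cells (median 0.66). Mitochondrial ribosomal protein genes gave 17 higher and 4 lower of 77 (median 0.21) and then 67 higher and 0 lower (0.85). Of 36 DNA replication genes, 0 were higher and 3 lower in CD43++ckit+ cells than in CD43+ckit- cells (median 0.07; 2 higher and 4 lower at an unadjusted p under 0.05; 1 higher and 5 lower with DESeq2), and 35 were higher and 0 lower in CD43+ckit- cells than in CD43-ckit- cells (1.35). The counts in CD43++ckit+ versus CD43+ckit- cells varied with the fit. Of all tested genes, 27.9% were higher there with library totals, 20.5% with DESeq2 and 34.6% without the 3 least correlated libraries. Leaving out library 1 or 2 of CD43++ckit+ gave 12.6% or 13.1%. Leaving out library 1, 2 or 3 of CD43+ckit- gave 15.7%, 15.2% or 14.4%, and library 1 of CD43-ckit- 22.6%. For cytosolic ribosomal proteins the counts were 8 higher and 1 lower with library totals and 12 and 3 without the 3 least correlated libraries. For mitochondrial ones they were 31 and 1 and 33 and 6 in the same settings, 6 and 7 higher without library 1 or 2 of CD43++ckit+, 10, 11 and 8 higher without library 1, 2 or 3 of CD43+ckit- and 29 higher without library 1 of CD43-ckit-. For DNA replication genes they were 2 and 1 with library totals, 8 and 4 once the least correlated libraries were left out and 3 and 5 without library 1 of CD43-ckit-. In CD43+ckit- versus CD43-ckit- cells, the 59 cytosolic genes became 38 with DESeq2 size factors and 35 without library 2 of CD43+ckit- (22.3% and 23.9% of all tested genes). The first difference minus the second had medians of -0.59, -0.63 and -1.25 in the 3 lists, and over all alternatives run these lay between -0.95 and -0.36, -1.01 and -0.48, and -1.59 and -0.80.

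**Figure D5:**
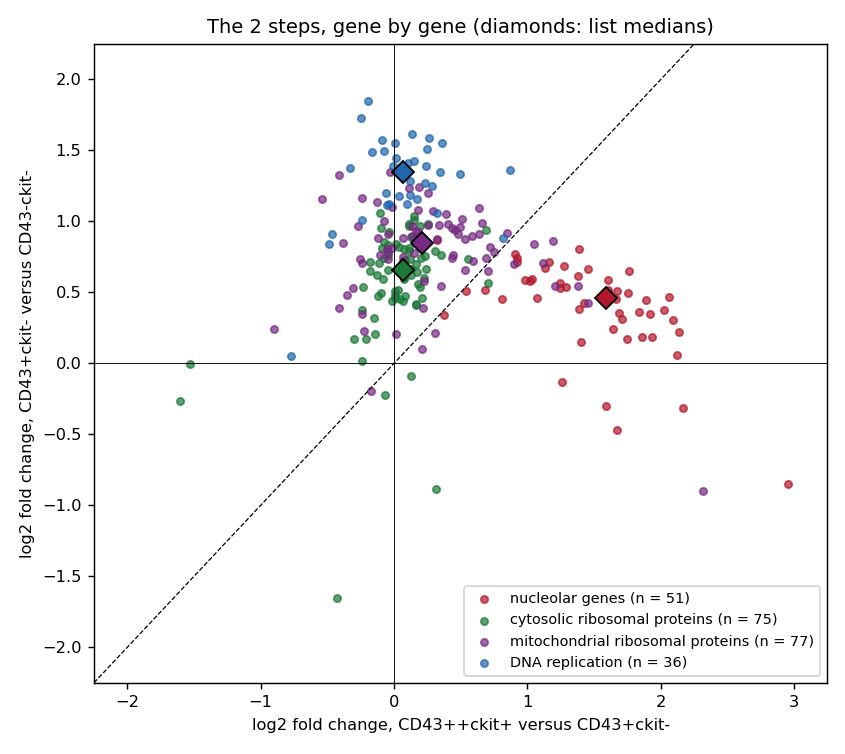
Log2 fold change of CD43++ckit+ versus CD43+ckit- (horizontal) against that of CD43+ckit- versus CD43-ckit- (vertical), a point per gene and a diamond at each list median. The nucleolar genes lie to the right, at medians of 1.59 and 0.46. Cytosolic ribosomal protein and DNA replication genes lie near 0 on the horizontal axis, at medians of 0.07, and mitochondrial ribosomal protein genes at 0.21. The medians of these lists are higher on the vertical axis than that of the nucleolar genes. Both axes share the CD43+ckit- libraries, so no correlation is given.

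Ribosome biogenesis genes beyond the list, 107 with a row of which 106 were tested, were chosen by role. In CD43++ckit+ versus CD43+ckit- cells 72 were higher and 1 lower (median 0.86; 19.7% and 20.1% of all tested genes). In CD43++ckit+ versus CD43-ckit- cells 90 were higher and 5 lower (median 1.58, with 39.7% and 27.7% of all). In CD43+ckit- versus CD43-ckit- cells 48 were higher and 4 lower (median 0.53, with 31.0% and 20.9% of all). By role, the second set of RNA polymerase I factors had 4 of 10 higher in CD43++ckit+ cells than in CD43+ckit- cells, snoRNP assembly factors 7 of 9, small subunit factors 25 of 38, large subunit factors 30 of 39 and the RNA exosome, which trims the precursor, 6 of 10. Of the exosome genes 9 of 10 were higher in CD43+ckit- cells than in CD43-ckit- cells.

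Naf1, an assembly factor that Gar1 replaces in the box H/ACA particle, was among the 6 other genes with the largest joint F. It stood at 34.7, 31.5 and 22.0 CPM in CD43++ckit+ cells, 4.10, 5.90 and 6.09 CPM in CD43+ckit- cells and 5.18, 7.53 and 6.03 CPM in CD43-ckit- cells, a difference of 2.45 ± 0.25 and 2.23 ± 0.25 (adjusted p = 0.000342 and 8.19e-05). The other 5 were higher in CD43++ckit+ cells than in CD43+ckit- cells and higher in CD43+ckit- cells than in CD43-ckit- cells, with both differences called. Of these, the helicase Ddx27 was at 143, 139 and 116 CPM in CD43++ckit+ cells, 94.2, 90.5 and 95.2 CPM in CD43+ckit- cells and 37.7, 46.1 and 46.1 CPM in CD43-ckit- cells. For Ddx27 the second gap, 1.11 ± 0.13 (adjusted p = 0.000265), was the larger in value than the first, 0.51 ± 0.13 (adjusted p = 0.0122). Ddx55, also a helicase, gave 0.48 and 1.17, the helicase Dhx37 0.78 and 0.89, the kinase Nol9 1.20 and 0.80, and Rbm28 0.84 and 0.80, each value giving CD43++ckit+ over CD43+ckit- and then CD43+ckit- over CD43-ckit-. The calls of Ddx27 against CD43+ckit- (without library 1 or 2 of CD43++ckit+) and of Ddx55 (without either of these or library 2 or 3 of CD43+ckit-) did not hold in every subset.

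Of the 5 genes lower in CD43++ckit+ cells than in CD43-ckit- cells, Ubtf, the activator that opens ribosomal DNA for RNA polymerase I, went against the polymerase subunits. It stood at 251, 248 and 216 CPM in CD43++ckit+ cells, 233, 230.3 and 213 CPM in CD43+ckit- cells and 612, 481 and 406 CPM in CD43-ckit- cells. The CD43++ckit+ and CD43+ckit- libraries of Ubtf overlapped (0.08 ± 0.16, adjusted p = 0.721), and CD43-ckit- lay above both (-1.07 ± 0.16 for CD43++ckit+ over CD43-ckit-, adjusted p = 0.000374). Fcf1, a nuclease of the small subunit precursor (-0.81), the helicase Ddx24 (-1.05), the rRNA modifying enzyme Tsr3 (-0.42) and Nop53, listed under its older symbol Gltscr2 (-0.34), were the others. These calls depended on the scaling: with library totals 0 of the 106 genes were lower, Ubtf and Ddx24 were at -0.13 and -0.11, and Fcf1, Tsr3 and Nop53 turned positive (0.12, 0.50 and 0.58), with Tsr3 and Nop53 called higher. The erythroid marker sum was likewise highest in CD43-ckit-, as given above, and its part in the Ubtf values was not tested.

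Levels of different genes were compared per length of annotated exons (GENCODE M21), as the mean CPM per kb of each population. The length joins the exons of all annotated transcripts of a gene. It was 11955 bases for Wdr12, 10188 for Ncl and 7705 for Rrp1b, against 1146 for Nhp2. Where it exceeds the transcripts in use, the level comes out too low, so the ranks below depend on the annotation. In CD43++ckit+ cells the highest levels were those of Npm1 (236), Nhp2 (81.4), Fbl (66.8) and Ncl (66.2 CPM per kb), and the lowest those of Wdr12 (4.72) and Rrp1b (5.63 CPM per kb). In CD43+ckit- cells Npm1 (70.4), Imp3 (48.9) and Nhp2 (40.1 CPM per kb) were highest, and Rrp1b (0.728) and Wdr12 (1.24 CPM per kb) lowest. In CD43-ckit- cells Npm1 (62.6), Nop10 (27.8) and Ncl (27.1 CPM per kb) were highest, and Wdr12 (1.08) and Rrp1b (1.31 CPM per kb) lowest. Part of the counts of Npm1, Npm3, Nop56, Fbl, Pes1, Mrto4 and Wdr3 is also uncertain, since 74.4% to 87.7% of their 50-base words occur in no other gene.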

How the data were processed

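RNA-seq libraries had been made with an Illumina TruSeq kit from total RNA, per the labels' protocols. The authors deposited a table of raw counts, whole numbers by gene symbol, of 9 libraries; its title calls them HTSeq counts. CASAVA 1.8, TopHat2 2.0.4, RSEM, edgeR and HTSeq are named without roles, per the submitters' processing notes. The processing notes name a human genome build although the gene symbols are those of mouse, so the build behind the counts is unknown. Annotation and use of strand were not given in the sources used here.

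The test was edgeR 4.0.16 (R 4.3.3): filterByExpr (minimum count 10, total 15), TMM, estimateDisp, robust glmQLFit of 3 group means over all 9 libraries, and glmQLFTest, with a call at a Benjamini-Hochberg adjusted p under 0.05. The standard error was taken as the log2 fold change divided by the root of F. The step was tested on simulated data. No 2 libraries of a population agreed within sampling noise (chi-square over its degrees of freedom 16.0 to 124.8).

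The members, the lists and the rule for named genes were chosen with earlier results of these data known. Values in every library are given for the 2 genes of each role (3 for each subunit) whose joint p was smallest among those with average log2 CPM of 3 or more, and for the genes with the highest and lowest average. Of the other pathway genes, the 6 with the largest joint F and those called lower in CD43++ckit+ than CD43-ckit- cells are named.

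Replicate numbers are shared between populations. Between CD43+ckit- and CD43-ckit-, the deviations of libraries with equal numbers had correlations of 0.525, 0.366 and 0.303, which met the rule for pairing that each exceed 0.1. Libraries 2 and 3 with unequal numbers reached 0.343 and 0.349 there, so the values do not establish pairs. For equal numbers the correlations were 0.447, -0.617 and 0.382 between CD43++ckit+ and CD43+ckit-. Between CD43++ckit+ and CD43-ckit- they were 0.262, -0.318 and 0.252, and the rule was met in neither case. Alternatives were library totals, DESeq2 size factors, DESeq2 1.42.0, no filter, a minimum count of 50, fits of 2 populations, replicate blocks and leaving out libraries. Fits without the 3 least correlated libraries and the contrast of the 2 differences were added after the data were seen. Exon lengths, overlaps and shared 50-base words came from GENCODE M21 and promoters from RefSeq.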

Additional observations from a re-analysis of the deposited data

How the results depend on the processing

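Under every alternative run, 43 to 51 of the 51 nucleolar genes were higher in CD43++ckit+ than CD43+ckit- cells (12.6% to 34.6% of all tested genes). Against CD43-ckit- cells 51 were higher in every run (29.1% to 61.4% of all), and 0 were lower in either comparison. The joint test called 50 or 51, against 74.8% of all tested genes in the main fit. Scaling by library totals moved the median of all tested genes from 0.01 to 0.28, from 0.19 to 1.11 and from 0.13 to 0.78 in the 3 comparisons, and the share of higher calls from 49.4% to 67.0%, from 58.9% to 82.2% and from 59.7% to 85.2%. With it the medians of the 51 genes became 2.79 against CD43-ckit- and, for CD43+ckit- versus CD43-ckit-, 1.09. With TMM in place of library totals the summed shares were 0.650%, 0.635% and 0.434% in the CD43++ckit+ libraries and, in the CD43-ckit- libraries, 0.129%, 0.183% and 0.189%.

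Between CD43+ckit- and CD43-ckit-, 10 genes were higher and 0 lower. The counts were 44 higher with library totals (54.6% of all tested genes) and 20 higher with no filter (23.2%). DESeq2 size factors gave 2 higher and 1 lower (22.3% of all higher), and DESeq2 3 and 2 (24.4%). A fit of these populations alone gave 5 higher (27.2%), and with the replicate block it gave 26 higher and 3 lower (34.5%). Without the least correlated libraries it was 36 and 4 (37.4%). Leaving out 1 library gave 3 to 17 higher and 0 to 1 lower (23.9% to 32.9% of all tested genes were higher). The replicate block over all libraries gave 49, 51 and 11 higher in the 3 comparisons (18.7%, 39.3% and 29.6% of all tested genes). With it 15 genes had the larger first difference (1302 of all 12573 tested genes). The count with the larger first difference, 19 in the main fit, became 5 with library totals (820 of all 12573 tested genes). It was 39 without the least correlated libraries (2946 of 12655) and 5 to 27 without 1 library (677 to 1606 of all tested genes).

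Of the other pathway genes, 1 was called lower in CD43++ckit+ than CD43+ckit- cells. This became 0 with library totals, 2 with DESeq2 size factors, the strict filter, the block over all libraries or 2 populations only, 3 with DESeq2 or without the least correlated libraries, and 0 to 2 without 1 library. The 5 lower than in CD43-ckit- became 0 with library totals, 3 with no filter or with 2 populations and the block, and 3 to 5 without 1 library. In CD43+ckit- versus CD43-ckit-, the 48 higher became 92 with library totals and 30 with DESeq2 size factors (54.6% and 22.3% of all tested genes). The 4 lower became 2 with library totals and 2 to 4 without 1 library. The causes were not tested.

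Single values that changed sign were as follows. For CD43+ckit- versus CD43-ckit-, library totals gave Ncl 0.33, Npm3 0.17, Nop10 0.49, Gnl3 0.32, Naf1 0.42, Tsr3 0.49 and Ddx24 0.064. DESeq2 size factors and DESeq2 each gave Npm1 -0.033, Nop58 -0.016, Dkc1 -0.052, Wdr12 -0.013, Rrs1 -0.13 and Gltscr2 -0.076. Without the least correlated libraries, Npm1 was -0.045, Nop58 -0.070 and Dkc1 -0.027. Leaving out 1 library gave -0.30 to 0.055 for Nop10, -0.092 to 0.40 for Wdr12 and -0.13 to 0.26 for Rrs1, and the strict filter gave Rrs1 -0.023. For CD43++ckit+ versus CD43-ckit-, library totals gave Fcf1 0.12, Tsr3 0.50 and Gltscr2 (Nop53) 0.58, and for CD43++ckit+ versus CD43+ckit- Tsr3 0.013. Of these, Gltscr2 (edgeR adjusted p = 0.00115) and both values of Tsr3 relative to CD43-ckit- (0.0164 and 0.0226) passed the test. Among the nucleolar genes the lowest count in any library was 55, and Polr1e, the lowest on average, passed the test against both other populations.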
